A study of Schmidtea mediterranea with 58 samples.

Results

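The immediate response to a wound was measured in tail fragments of control planarians, transcript by transcript, by setting wound tissue collected 3 hours post-amputation (hpa) against tissue collected at the moment of cutting (0 hpa). The members are the 10 RNA-seq libraries labelled control at these times, 5 at 3 hpa and 5 at 0 hpa, of the 58 libraries of the series. All animals were *Schmidtea mediterranea* of the asexual strain CIW4. Both groups had been fed 8 times with liver carrying double-stranded RNA against *unc-22*, a nematode muscle gene that serves as the control sequence in planarian RNA interference (RNAi), so any effect of the feeding is shared by the groups compared. Animals were amputated 7 days after the last feeding according to the labels, whereas the study's methods give 3 days for *equinox* RNAi animals. The anterior-facing wounds of tail fragments were excised. Each library pooled 5 wounds. The remaining 48 libraries included control wounds at 6, 16, 24 and 48 hpa. The others were wounds of animals fed double-stranded RNA against *equinox*, taken at every time of the series. All 48 lie outside both groups compared and serve as comparators. They were part of the same fit, however, and so shared in its filter on low counts, its scaling and its estimates of spread. The labels do not say which libraries came from separate experiments, so the p-values measure the spread between these samples, which may be partly technical.

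Planarians rebuild missing tissue from neoblasts, the dividing stem cells of the adult body. Any injury is known to switch on a rapid, transient transcriptional program within hours, in muscle, epidermis and neoblasts, and signalling and transcription-factor genes are well known among its early members. Later phases, in which neoblasts gather and patterning genes come on, follow only where tissue is missing. An excised wound holds epidermis, muscle, gut, nervous tissue and neoblasts together. In such bulk samples fewer cells of one type and less RNA per cell cannot be told apart.

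Library depth ran from 1312330 counts in 3 hpa replicate 3 to 20162843 counts in 3 hpa replicate 2, with the other 3 libraries at 3 hpa between 9909686 and 10592528 and the 5 libraries at 0 hpa between 5920170 and 17545717. The shallow library detected 19606 transcripts, against 23207 to 26825 in the other 9. Replicates 3 and 4 at 3 hpa also shared a few transcripts that were nearly absent from the other libraries compared. This pair was picked after the values were seen, and no such count is given for other pairs. In both, 8 transcripts were at 1 CPM or more (CPM, counts scaled to a common library size) and under 0.5 CPM in the other 8 libraries, none of them called or annotated. At the median, these transcripts were at 1 CPM or more in 7 of the other 48 libraries of the series. TMM scaling factors were higher at 3 hpa (1.06 to 1.125) than at 0 hpa (0.966 to 1.06), with an exact permutation p (two-sided) of 0.00794, below which 5 against 5 libraries cannot go. Transcripts of the neuronal, muscle and ciliary classes, which a whole tissue fragment should hold, were among those with enough counts for the test (16 of 23, 14 of 20 and 22 of 33 transcripts so annotated).

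At 3 hpa 639 of 20129 transcripts tested had changed (edgeR quasi-likelihood test, Benjamini-Hochberg adjusted p below 0.05), which is 3.17% of them. Of these, 309 were higher (1.54%) and 330 were lower (1.64%). The called rises had a median log2 fold change of 0.78 and the called falls of -0.43, against -0.01 over all transcripts tested. The called sets differed in depth, with a median of 13.4 CPM at 3 hpa and 7.56 CPM at 0 hpa for the rises, and 39.2 CPM at 3 hpa and 54.5 CPM at 0 hpa for the falls (not scaled to length). Fewer counts require a larger fold change for a call, so the medians of rises and falls are not comparable. A change of at least 2-fold was reached by 114 rises (0.566% of transcripts tested) and by 13 falls (0.0646%). Leaving out 1 library moved the 114 to between 51, without 3 hpa replicate 2, and 162, without 3 hpa replicate 5, with 66 without 0 hpa replicate 3, and it moved the 13 to between 8 and 16, with 8 without 0 hpa replicate 5 or 3 hpa replicate 4. Together the 309 risen transcripts held 1.89% of counts at 3 hpa and 1.15% at 0 hpa, and the 330 fallen ones 3.12% at 3 hpa and 3.81% at 0 hpa. With other size factors the balance of the calls shifted, with 48.4% of them higher in the TMM fit, 61.8% with RLE size factors and 59.3% in DESeq2. Leaving out 1 library gave 345 calls without 3 hpa replicate 2, 348 without 0 hpa replicate 3, 376 without 0 hpa replicate 5 and 382 without 3 hpa replicate 4, and 440 to 719 without each of the others. Without 3 hpa replicates 3 and 4 together, a setting added after these libraries had been seen, 249 calls were made, 179 higher and 70 lower, 244 of them among the 639, with 65 rises and 4 falls of at least 2-fold.

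**Figure D1:**
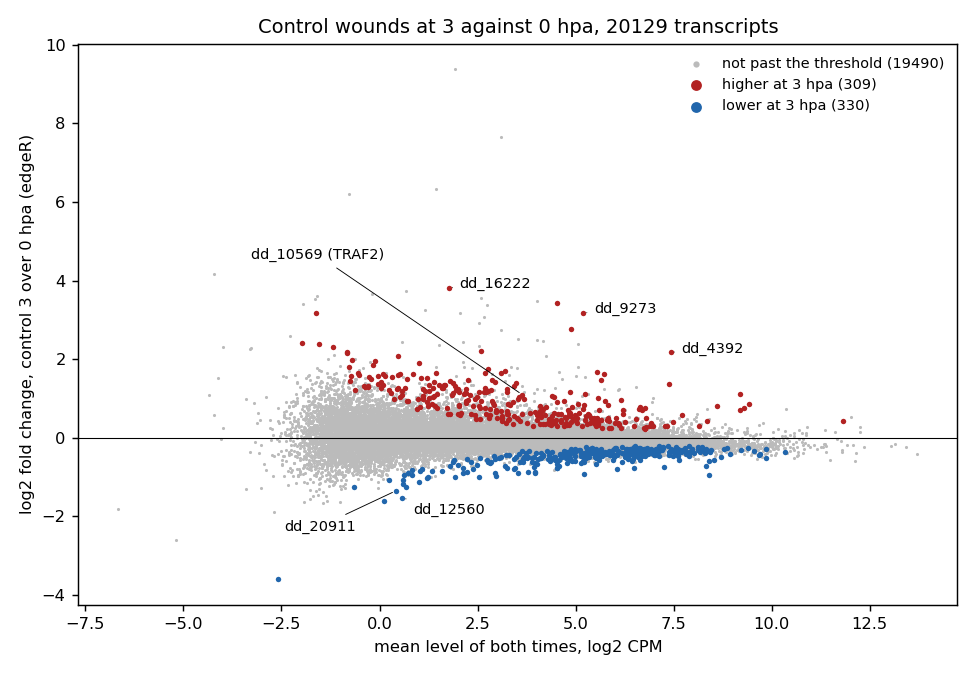
Log2 fold change at 3 hpa over 0 hpa (vertical axis) against the mean level of both times in log2 CPM (horizontal axis) for every transcript tested in control wounds, with 309 called higher, 330 called lower and 19490 not called marked by colour. The called rises reach up to a log2 fold change of 3.82, and the called falls have a median of -0.43.

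The levels of the 5 libraries at 3 hpa and the 5 at 0 hpa did not overlap for 1751 transcripts (8.7% of those tested), of which 583 were higher (2.9%) and 1168 lower (5.8%). Among the called rises, 219 of 309 had groups that did not overlap, and among the called falls 298 of 330. Of the 114 rises of at least 2-fold, 70 had no overlap and 44 did overlap. Among the 13 falls of at least 2-fold, 9 had no overlap. Only 3 of the 114 and none of the 13 carry an annotation in the sources used here, so most of the largest changes are described by transcript number alone. These sources name only 643 of the 20129 transcripts tested, so a missing name says nothing about what a transcript encodes.

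The largest rise was that of dd_16222. It stood at 5.52, 8.86, 4.07, 5.69 and 7.63 CPM in 3 hpa replicates 1 to 5, against 0.58, 0.613, 0.12, 0.296 and 0.7 CPM in 0 hpa replicates 1 to 5. Every library at 3 hpa was above every library at 0 hpa, and the log2 rise was 3.82 ± 0.47 (SE; 14.1-fold; edgeR adjusted p = 1.25e-07). The next of the transcripts without overlap, dd_9273, stood at 66.7, 80.8, 65.1, 46.3 and 70.6 CPM at 3 hpa, against 4.48, 8.3, 13.4, 4.54 and 5.95 CPM at 0 hpa. This was a 9.05-fold rise, log2 3.18 ± 0.24 (edgeR adjusted p = 5.69e-14). Both transcripts rose at 3 hpa in *equinox* RNAi wounds as well, by log2 4.11 and 2.96. Neither has a human best hit or a protein domain in the annotation used.

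A log2 fold change of 2 or more was reached by 13 called transcripts, 10 of them without overlap between the groups. The following were singled out after their values were seen. dd_4392 had the smallest adjusted p of the 13. It stood at 300, 304, 269, 233 and 300 CPM at 3 hpa, against 58.8, 70.1, 70.5, 54.8 and 57.7 CPM at 0 hpa, a log2 rise of 2.17 ± 0.14 (edgeR adjusted p = 4.81e-17). At the low end of the measured range, dd_51966 stood at 0.368, 0.409, 0.678, 0.876 and 0.629 CPM at 3 hpa, against 0, 0.0557, 0.12, 0.0988 and 0 CPM at 0 hpa, from 31 counts in all at 3 hpa and 3 at 0 hpa, so its fold change of log2 3.17 rests on very few reads. A wide spread between libraries marked dd_9120_1_1, at 27.1, 3.41, 85.4, 75.1 and 20.2 CPM at 3 hpa, against 2.32, 2.62, 4.58, 6.32 and 2.45 CPM at 0 hpa (log2 3.42 ± 0.98; edgeR adjusted p = 0.0387). Replicate 2 at 3 hpa lay within the range of the 0 hpa libraries there.

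The largest falls with no overlap and enough counts were small in absolute level. dd_12560 stood at 1.1, 0.682, 0.678, 0.876 and 0.449 CPM at 3 hpa, against 2.98, 1.84, 2.29, 1.78 and 2.27 CPM at 0 hpa (log2 -1.53 ± 0.31; edgeR adjusted p = 0.00122). dd_20911 stood at 0.736, 1.05, 0, 0.438 and 0.988 CPM at 3 hpa, against 1.82, 2.28, 1.81, 2.27 and 1.92 CPM at 0 hpa (log2 -1.35 ± 0.32; edgeR adjusted p = 0.00918). All 5 libraries at 3 hpa were below all 5 at 0 hpa for both. The call of dd_20911 was lost without 3 hpa replicate 4 (adjusted p = 0.0508), and in *equinox* RNAi wounds its log2 fold change was -0.14 (edgeR adjusted p = 0.999). The deepest fitted fall among the calls, log2 -3.60 for dd_41809, came from 1 count in all at 3 hpa and 16 at 0 hpa.

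Names were available for 857 transcripts, 643 of which were tested. A name here is that of the best human match by blastx, which places a transcript in a family without making it the human gene's counterpart, or that of a Pfam domain. Of the 643, 12 rose (1.87%) and 15 fell (2.33%), against 1.54% and 1.64% of all transcripts tested. For 8 of the 12 rises and 14 of the 15 falls the 3 hpa and 0 hpa libraries did not overlap. Among all calls this held for 219 of 309 rises and 298 of 330 falls, so nothing particular to the annotated calls is read from it.

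Among the annotated rises 2 carry domains or matches of signalling proteins that act inside the cell. dd_10569 (best human match TRAF2, an adaptor with ubiquitin-ligase features that in mammals relays tumour necrosis factor receptor signals to NF-κB and JNK) stood at 15.9, 18.5, 17.6, 13.8 and 18.9 CPM at 3 hpa, against 5.55, 8.24, 8.79, 8.79 and 8.4 CPM at 0 hpa. All 5 libraries at 3 hpa lay well above all 5 at 0 hpa. Its mean was 17.0 ± 2.1 CPM at 3 hpa and 7.96 ± 1.37 CPM at 0 hpa (SD, n = 5 each), a 2.14-fold rise, log2 1.10 ± 0.13 (edgeR adjusted p = 1.75e-08). dd_10685, which carries an SH2 domain and a SOCS box, the pairing found in proteins that damp cytokine receptor signals in mammals, stood at 10.1, 14.2, 8.14, 14.6 and 7.18 CPM at 3 hpa, against 6.88, 4.57, 1.69, 4.64 and 1.57 CPM at 0 hpa. Its log2 rise was 1.46 ± 0.36 (edgeR adjusted p = 0.0112), with the lowest 3 hpa library just above the highest 0 hpa library, and the call was lost without 0 hpa replicate 3 (adjusted p = 0.0567) or 3 hpa replicate 2 (adjusted p = 0.0529).

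Another annotated rise of at least 2-fold, dd_10663 with an Njmu-R1 domain, stood at 1.93, 9.27, 6.1, 6.39 and 1.8 CPM at 3 hpa, against 2.82, 1.45, 1.32, 2.27 and 1.22 CPM at 0 hpa (log2 1.45 ± 0.36; edgeR adjusted p = 0.013). Only 3 hpa replicates 2, 3 and 4 exceeded the 0 hpa range, and without replicate 2 the adjusted p was 0.206. Without 0 hpa replicate 2 it was 0.0509.

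Receptors and surface proteins of the annotated rises moved by less. dd_10393 (LRFN5, a leucine-rich adhesion protein of synapses in mammals) stood at 22.5, 20.5, 19.7, 18.5 and 23.3 CPM at 3 hpa, against 13.3, 13.8, 13.4, 12.8 and 12.8 CPM at 0 hpa, log2 0.67 ± 0.13 (edgeR adjusted p = 0.00133). The 0 hpa libraries were tightly grouped for this transcript, and all 3 hpa libraries lay well above them. dd_10171 (GABRB2, a subunit of the chloride channel opened by the transmitter GABA) stood at 27.2, 27.1, 32.5, 27.2 and 27.4 CPM at 3 hpa, against 21.1, 20.7, 23.5, 22.2 and 18 CPM at 0 hpa, log2 0.40 ± 0.09 (edgeR adjusted p = 0.00392). A G protein-coupled receptor of the rhodopsin family, dd_10399, stood at 11.6 to 14.9 CPM at 3 hpa, against 7.83 to 11.4 CPM at 0 hpa (log2 0.49; edgeR adjusted p = 0.0112).

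Transport, nuclear and enzyme transcripts made up most of the other annotated rises. dd_10199 (SLC10A2, a sodium-driven bile acid transporter in mammals) stood at 29.6, 31.5, 26.4, 32.4 and 29.1 CPM at 3 hpa, against 18.8, 17.6, 24.8, 18.7 and 19.1 CPM at 0 hpa (log2 0.61 ± 0.16; edgeR adjusted p = 0.0167). dd_10180 (WDR46, a nucleolar protein needed to make the small ribosomal subunit) stood at 24.5, 23.1, 24.4, 23.2 and 22 CPM at 3 hpa, against 19.6, 16.9, 17.8, 18.1 and 16.4 CPM at 0 hpa (log2 0.39 ± 0.08; edgeR adjusted p = 0.00176). The other 4 rose by log2 0.31 to 0.60 with adjusted p between 0.0223 and 0.0403. They were dd_10466 (TLCD5), dd_10404 (RNASEH2A, the catalytic subunit of an enzyme that removes RNA from DNA hybrids), dd_10813 (PRCP, a lysosomal carboxypeptidase) and dd_10260 (ZNF486, a zinc finger protein). Only the last of these had groups that did not overlap.

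**Figure D2:**
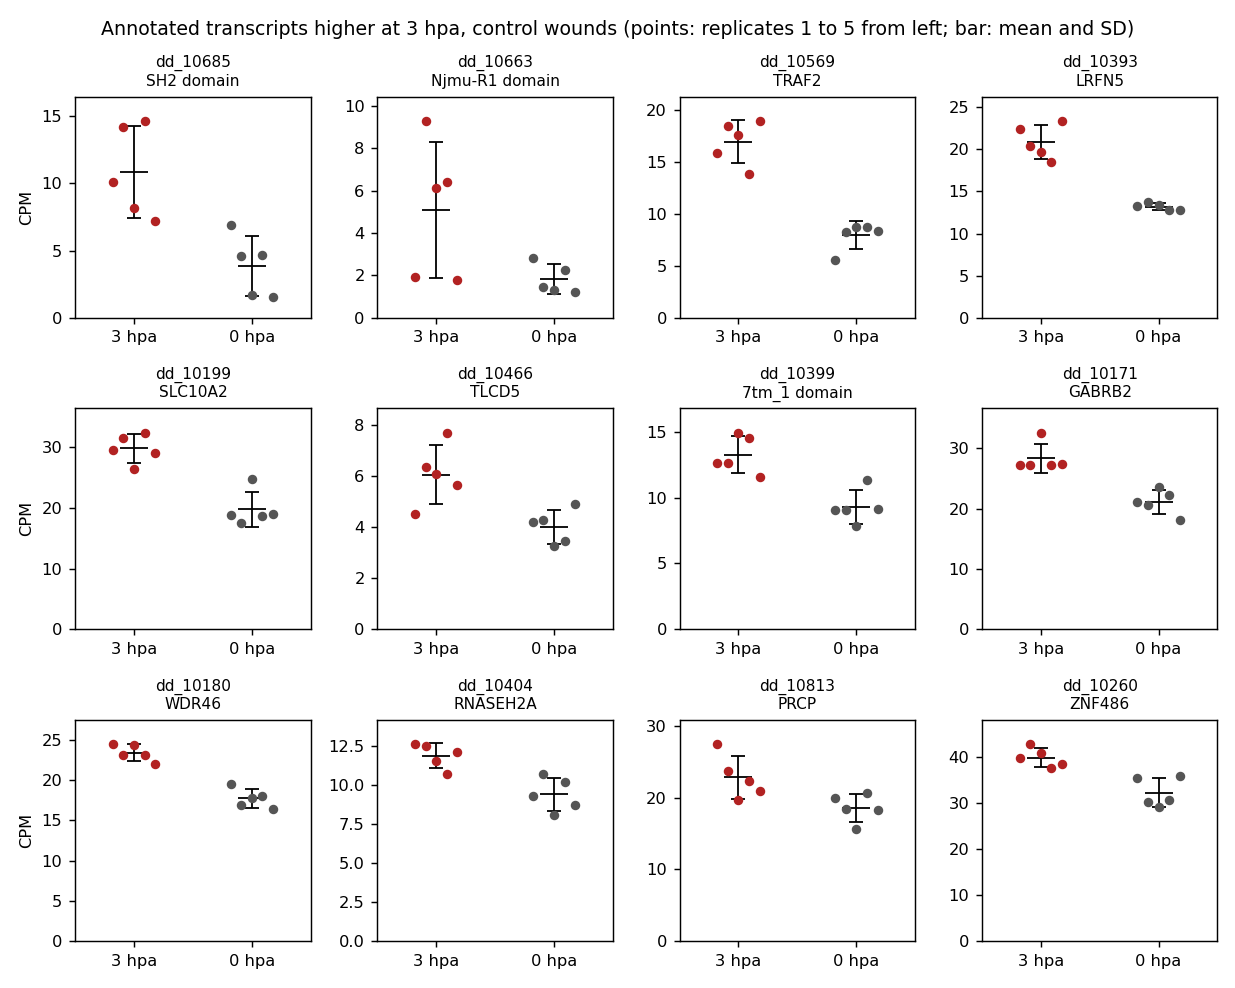
Level in CPM (linear axes from 0) of the annotated transcripts called higher, one point per library of 5 pooled wounds, 3 hpa left of 0 hpa, with bars for the mean and SD. For dd_10569 (TRAF2) the 5 libraries at 3 hpa lie between 13.8 and 18.9 CPM, above the 5 at 0 hpa between 5.55 and 8.79 CPM, whereas dd_10663 overlaps.

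The annotated falls were all under 2-fold, from log2 -0.61 to -0.25. Among them were 4 that matched signalling proteins, again gathered after the calls. dd_10148 (BRAF, a kinase at the head of the mitogen-activated kinase cascade) stood at 24.8, 25.9, 25.1, 22.9 and 23 CPM at 3 hpa, against 36.8, 29.7, 30.8, 29.5 and 30.4 CPM at 0 hpa, log2 -0.37 ± 0.07 (edgeR adjusted p = 0.000969). dd_10499 (ERBB4, a receptor tyrosine kinase for neuregulins) stood at 39.8, 40.1, 34.6, 36.1 and 39.4 CPM at 3 hpa, against 48.8, 48.5, 53.4, 53.6 and 54.9 CPM at 0 hpa, log2 -0.43 ± 0.09 (edgeR adjusted p = 0.00252). Each of these had its groups fully separated. dd_10687, with the domain of ephrins, the surface ligands of Eph receptors, stood at 9.46 to 11.8 CPM at 3 hpa, against 12.3 to 15 CPM at 0 hpa (log2 -0.35; edgeR adjusted p = 0.0385). dd_10380 (UNC5B, a receptor for the guidance cue netrin) had the smallest fall, log2 -0.25, with overlapping groups and an adjusted p of 0.0433 that was above 0.05 when any 1 of 8 libraries was left out, at most 0.215.

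Other falls matched enzymes, lysosomal proteins and a transporter, gathered here by role after they had been called, with no test of these roles. dd_1026 (ACSBG2, which activates fatty acids with coenzyme A) stood at 338, 338, 356, 325 and 375 CPM at 3 hpa, against 485, 467, 548, 446 and 507 CPM at 0 hpa, log2 -0.50 ± 0.13 (edgeR adjusted p = 0.0144). dd_1062 (GAA, the lysosomal enzyme that breaks down glycogen) stood at 389, 459, 430, 392 and 425 CPM at 3 hpa, against 546, 538, 554, 535 and 606 CPM at 0 hpa, log2 -0.41 ± 0.11 (edgeR adjusted p = 0.0179). For both, the 3 hpa libraries lay entirely below the 0 hpa libraries. dd_10724 (MFSD8, a lysosomal membrane protein) stood at 20.6, 26.7, 16.3, 26.9 and 27 CPM at 3 hpa, against 31.7, 32.5, 34.8, 30 and 35.2 CPM at 0 hpa (log2 -0.43; edgeR adjusted p = 0.00774). dd_10135 (ACSF2, another acyl-coenzyme A synthetase) and dd_1073 (TAT, which starts the breakdown of tyrosine) fell by log2 0.30 and 0.37 (edgeR adjusted p = 0.0382 and 0.0348). The transporter transcript dd_10595 (SLC47A2, which exports organic cations in mammals) fell by 0.48 on the log2 scale (edgeR adjusted p = 0.0284), with 3 hpa libraries at 16.9 to 23.9 CPM and 0 hpa libraries at 27.5 to 30.6 CPM.

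The remaining falls had no shared role. dd_10318 (LDB3, a protein of the muscle Z-disc) stood at 7.46 to 12 CPM at 3 hpa, against 12.4 to 19.4 CPM at 0 hpa (log2 -0.55; edgeR adjusted p = 0.0247). dd_10483 (TRDMT1, a methyltransferase of transfer RNA) fell by 0.61 on the log2 scale (edgeR adjusted p = 0.0463), and dd_1068, with a universal stress protein domain, by 0.54 (edgeR adjusted p = 0.0253). dd_10280 (ANKRD63, an ankyrin-repeat protein) and dd_1027 (VWA5A) fell by 0.45 and 0.31 (edgeR adjusted p = 0.0109 and 0.0206). Groups did not overlap for any of these 5.

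**Figure D3:**
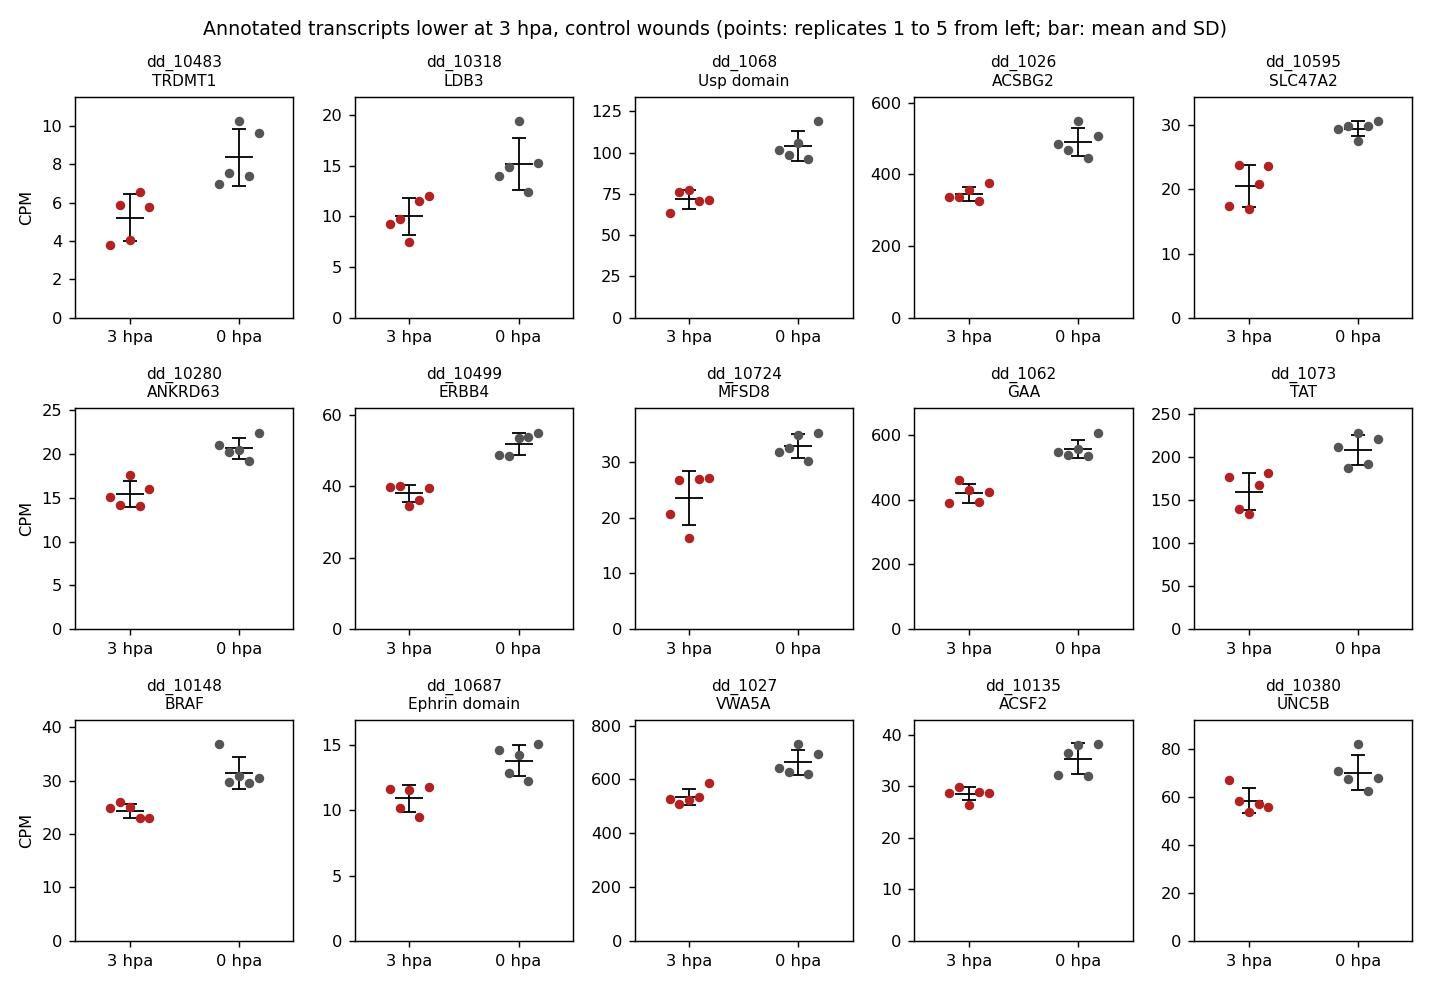
Level in CPM (linear axes from 0) of the annotated transcripts called lower, one point per library of 5 pooled wounds, 3 hpa left of 0 hpa, with bars for the mean and SD. All these falls are under 2-fold: for dd_10148 (BRAF) the 3 hpa libraries lie between 22.9 and 25.9 CPM and the 0 hpa libraries between 29.5 and 36.8 CPM.

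Many of these calls were close to the threshold. Among the 31 transcripts named by rule (27 annotated and 4 without annotation), 11 stayed called whichever of the 10 libraries was left out. These were dd_16222, dd_9273, dd_12560, TRAF2, LRFN5, GABRB2, WDR46, ANKRD63, ERBB4, MFSD8 and BRAF. The other 20 were lost without at least 1 library, with adjusted p of up to 0.215, and none changed sign. In 70 of these 89 losses the log2 fold change was at least 90% of its value with all libraries, and it was 67.0 to 107% over the 89. The losses among the 31 were 15 without 0 hpa replicate 3, 14 without 3 hpa replicate 2, 12 without 3 hpa replicate 4, 11 without 0 hpa replicate 5, 9 without 0 hpa replicate 2, 8 without 3 hpa replicate 1, 7 without 3 hpa replicate 3, 5 without 0 hpa replicate 1, and 4 each without 0 hpa replicate 4 and 3 hpa replicate 5. With 3 hpa replicates 3 and 4 both left out, BRAF was the only annotated fall still called (edgeR adjusted p = 0.0196). In that setting ANKRD63, MFSD8 and ERBB4 had log2 fold changes of -0.43, -0.38 and -0.36. They did not pass the threshold (edgeR adjusted p = 0.0658, 0.0674 and 0.0778). Of the annotated rises, TRAF2, LRFN5, GABRB2, WDR46, RNASEH2A, PRCP and ZNF486 stayed called there.

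Lists drawn from the same annotation hold only the annotated fragment of each gene group and were described by counts, with no set test. Of 244 transcripts in 12 lists, 195 were tested and 10 were called, in a table where 3.17% of all transcripts were called. None of 24 transcription factors tested passed the threshold, with log2 fold changes from -0.38 to 0.56 and a median of -0.01, equal to that of all transcripts. Among 19 TRAF, ubiquitin-ligase and cell death regulators, dd_10569 (TRAF2) alone rose, and the list median was 0.09, with 14 of the 19 above 0. Another transcript that matches TRAF2, dd_10117, had a log2 fold change of 0.02 (edgeR adjusted p = 0.962). In *equinox* RNAi wounds dd_10117 was called lower, by log2 -0.40 (edgeR adjusted p = 0.0353). Elsewhere in the text TRAF2 means dd_10569 and ERBB4 means dd_10499. dd_10424, a transcript that matches TRAF6, had a log2 fold change of 0.42 (edgeR adjusted p = 0.0909), which did not pass the threshold. Nor did CYLD, a deubiquitinase of the same pathways, at 0.36 (edgeR adjusted p = 0.415). The lowest value of the list was that of dd_10104, which matches MIB2, at -0.69 (edgeR adjusted p = 0.21), also not past the threshold. Of 25 signalling ligands, receptors and modulators, LRFN5 rose and ERBB4, BRAF and UNC5B fell, with a list median of -0.12. Another transcript that matches ERBB4, dd_10624, had a log2 fold change of 0.02 (edgeR adjusted p = 0.973). NOTCH1, the receptor of the Notch pathway, had a log2 fold change of 0.37 (edgeR adjusted p = 0.104).

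Structural and housekeeping lists had at most 1 call each, and the median of all transcripts tested was -0.01. Among 16 extracellular matrix and secreted protease transcripts PRCP rose, and the list median was -0.13. WDR46 was the sole call among 19 ribosome biogenesis transcripts (median 0.02), RNASEH2A among 15 of the cell cycle, replication and DNA repair (median 0.09, with 11 above 0), GABRB2 among 16 of neuronal receptors, channels and synapse (median -0.08), and LDB3 among 14 of muscle and the actin cytoskeleton (median 0.01). No call fell among 12 protein folding and stress transcripts (median 0.04), 22 of cilia and axoneme (median -0.06), 11 of mitochondrial respiration encoded in the nucleus (median -0.05) or the 3 ribosomal protein transcripts that could be tested (median -0.18, all 3 below 0). The calls of UNC5B, PRCP, RNASEH2A and LDB3 were among those lost without single libraries.

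*equinox*, *bmp4* and *teneurin*, which the sources pair with a transcript number, did not pass the threshold at 3 hpa. *equinox* (dd_20318), a gene of the epidermis at wounds, stood at 4.14, 5.77, 6.1, 4.2 and 5.75 CPM at 3 hpa, against 4.31, 7.58, 5.54, 6.42 and 6.3 CPM at 0 hpa (log2 -0.25 ± 0.51; edgeR adjusted p = 0.863). *bmp4* (dd_17402), the dorsal signalling ligand made in muscle, stood at 2.39, 2.55, 2.03, 2.28 and 1.53 CPM at 3 hpa, against 2.9, 2.67, 3.25, 2.27 and 2.27 CPM at 0 hpa (log2 -0.29 ± 0.22; edgeR adjusted p = 0.535). *teneurin* (dd_5439), a large transmembrane adhesion protein, stood at 211, 192, 224, 222 and 243 CPM at 3 hpa, against 213, 233, 266, 250 and 256 CPM at 0 hpa (log2 -0.16 ± 0.12; edgeR adjusted p = 0.544). The groups overlapped for all 3.

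In control wounds, transcripts of the mitochondrial genome took a larger share of counts at 3 hpa than at 0 hpa. The 8 such transcripts held 0.446 ± 0.0563% of counts at 3 hpa and 0.347 ± 0.009% at 0 hpa (SD, n = 5 each), with no overlap between 0.374 to 0.524% at 3 hpa and 0.339 to 0.357% at 0 hpa. The exact two-sided permutation p was 0.00794, the smallest possible here. No single one of the 8 was called, with log2 fold changes from 0.11 to 0.48 and edgeR adjusted p from 0.131 to 0.797. The highest share, 0.524%, was in the shallow library, 3 hpa replicate 3, and without any 1 library the difference in share was 0.0803 to 0.118 percentage points. The *equinox* RNAi wounds did not have this rise. Their share was 0.283 to 0.387% at 3 hpa and 0.313 to 0.425% at 0 hpa, with overlap.

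The libraries at 3 hpa did not contribute evenly to the larger rises. In 42 of the 114 rises of at least 2-fold (36.8%), replicates 1 and 5 were both below replicates 2, 3 and 4, an order found in 2157 of all 20129 transcripts tested (10.7%). The order also held in 37 of the 195 smaller rises and 14 of the 330 falls (4.24%). The median log2 ratio of the 114 transcripts to their 0 hpa mean was 1.08, 1.55, 1.44, 1.37 and 0.96 in 3 hpa replicates 1 to 5, against 0.18, 0.05, -0.27, 0.03 and -0.23 in 0 hpa replicates 1 to 5. The 114 were selected as rises in these same libraries, so ratios above 0 at 3 hpa follow from the selection, and the order was noticed in the data. Of the 42 transcripts with this order, 24 overlapped the 0 hpa range, against 20 of the other 72. An example chosen after its values were seen is dd_1940, at 11.1, 57.5, 108, 60.9 and 20 CPM at 3 hpa, against 5.22, 7.85, 6.63, 5.43 and 10.1 CPM at 0 hpa (log2 2.76 ± 0.75; edgeR adjusted p = 0.0275). The share of mitochondrial counts had the same order at 3 hpa, at 0.374 and 0.420% in replicates 1 and 5, and 0.473, 0.524 and 0.442% in replicates 2, 3 and 4. Its part in the uneven rises was not tested.

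**Figure D4:**
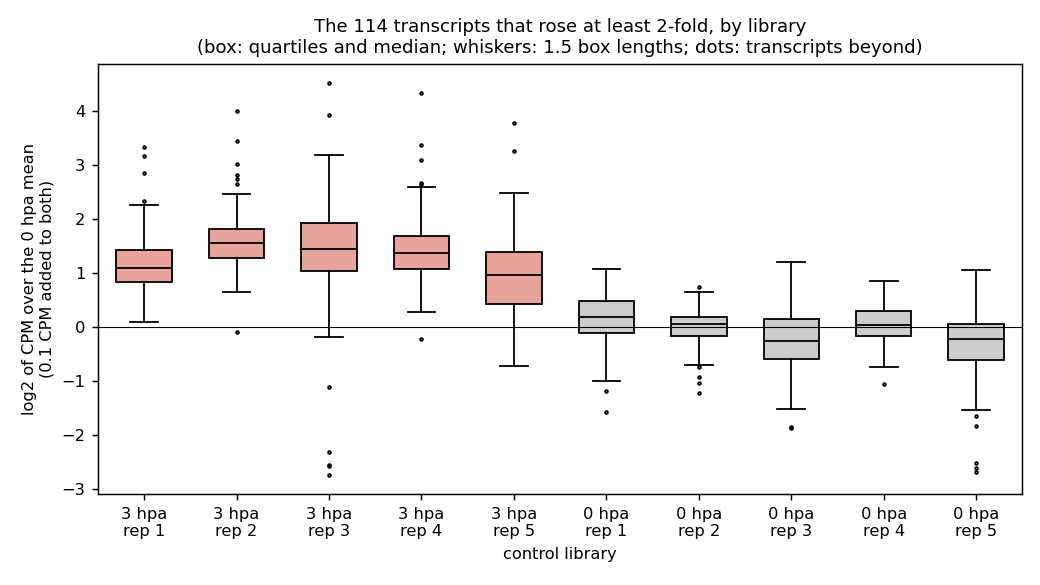
Log2 ratio of each library's CPM to the 0 hpa mean (0.1 CPM added to both) for the 114 transcripts that rose at least 2-fold, by library, with the 3 hpa libraries left of the 0 hpa libraries (boxes show quartiles and medians, whiskers 1.5 box lengths, dots the transcripts beyond). The median ratio is 1.55, 1.44 and 1.37 in 3 hpa replicates 2, 3 and 4, and 1.08 and 0.96 in replicates 1 and 5.

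A fitted log2 fold change of 3 or more without a call was found for 16 transcripts. The highest library was 3 hpa replicate 3 in 13 of them and 3 hpa replicate 4 in the other 3, and in 15 the highest 3 hpa library exceeded the lowest more than 10 times. The smallest adjusted p among them was 0.0789. dd_808, chosen after its values were seen, stood at 0, 0, 25.8, 12.4 and 0 CPM at 3 hpa and at 0 in all 5 libraries at 0 hpa (edgeR adjusted p = 0.191). In the other 48 libraries of the series it was at 1 CPM or more in 7, with a highest value of 57.2 CPM in an *equinox* RNAi library at 3 hpa. Of the 8 transcripts described above as nearly restricted to 3 hpa replicates 3 and 4 among these 10 libraries, 7 were among the 16. The source of these transcripts was not tested.

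Wounds of *equinox* RNAi animals covered the same interval in libraries outside both control groups. These libraries were in the fit that gave the control calls, so the calls of both treatments are not independent. Without them, a fit of the 29 control libraries gave 364 control calls and one of the 10 libraries compared gave 1845, against 639. Whether the animals of both treatments came from separate experiments is not given in the labels. The *equinox* RNAi libraries numbered 5 at 3 hpa and 4 at 0 hpa. Of the 5, replicate 1 has a time field of 0 hpa in its label and was placed by its title. In this comparison 275 of the 20129 transcripts were called (1.37%), 197 higher (0.979%) and 78 lower (0.388%). Of the control rises, 111 were also called higher after *equinox* RNAi, which is 35.9% of the 309 in control wounds and 56.3% of the 197 in *equinox* RNAi wounds. Of the control falls, 40 were also called lower, 12.1% of the 330 in control wounds and 51.3% of the 78 in *equinox* RNAi wounds.

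The direction of the control rises held widely in *equinox* RNAi wounds. A positive log2 fold change after *equinox* RNAi was found for 289 of the 309 control rises (93.5%), against 50.8% of all transcripts tested. A negative one was found for 243 of the 330 control falls (73.6%), against 49.2% of all. The control rises had a median log2 fold change of 0.78 in control wounds and 0.41 in *equinox* RNAi wounds, and that of the falls was -0.43 in control wounds and -0.15 in *equinox* RNAi wounds. The transcripts were selected on the control values, so nothing is read from the order of these medians. Of the 12 annotated control rises all 12 were positive after *equinox* RNAi and 6 were called, dd_10569 (TRAF2) by log2 1.20 ± 0.13 (edgeR adjusted p = 1.31e-09) and also SLC10A2 (0.68), LRFN5 (0.56), GABRB2 (0.40), WDR46 (0.40) and ZNF486 (0.31). Of the 15 annotated falls 9 were negative and 2 were called, BRAF (-0.27) and the ephrin-domain transcript dd_10687 (-0.36).

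The difference between the treatments was tested directly with an interaction term, control change minus *equinox* RNAi change. It was called for 1 of 20129 transcripts (0.00497%), with 1323 (6.57%) at an unadjusted p below 0.05, and DESeq2 called 21. The 1 transcript, dd_3578, has no annotation in the sources used here, which cover only a part of the transcriptome. It stood at 48.5, 51.9, 54.9, 46.6 and 49.2 CPM in control wounds at 3 hpa, against 67.5, 70.7, 63.1, 62.7 and 72.1 CPM in control wounds at 0 hpa, a log2 fold change of -0.43 (edgeR adjusted p = 0.0275). In *equinox* RNAi wounds it stood at 50.3 to 67.6 CPM at 3 hpa, against 34.3 to 50 CPM at 0 hpa, a log2 fold change of 0.47 (edgeR adjusted p = 0.0285). The changes differed by -0.90 (edgeR adjusted p = 0.0417). Among the annotated transcripts called in control wounds, the smallest adjusted p of this test was 0.155, for ERBB4 (difference -0.53) and GAA (difference -0.63).

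**Figure D5:**
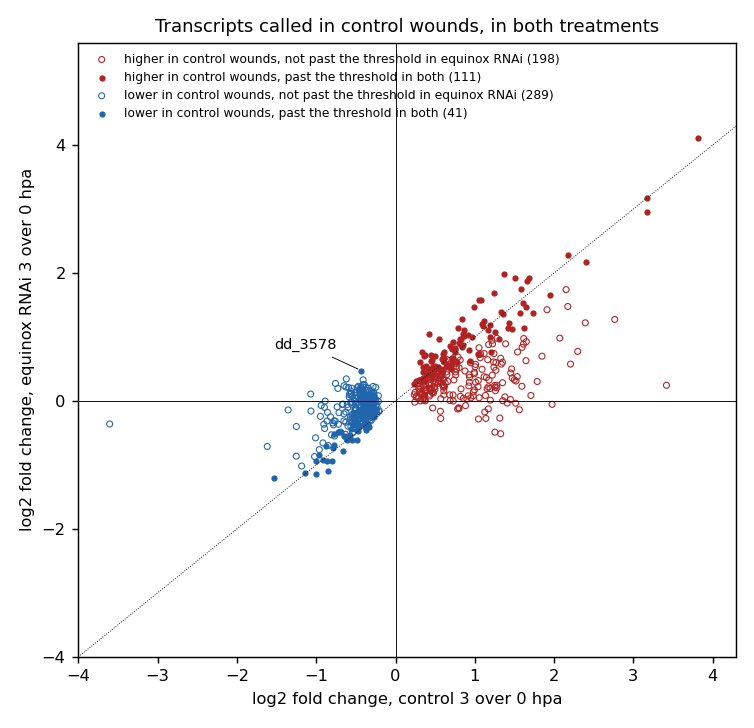
Log2 fold change at 3 hpa over 0 hpa in control wounds (horizontal axis) and in *equinox* RNAi wounds (vertical axis) for the transcripts called in control wounds, coloured by direction, with filled points for those also called after *equinox* RNAi. Of the 309 control rises, 111 were called in both treatments, and 289 lie above zero on the vertical axis.

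At later times the control values are given beside those at 3 hpa without a comparison of the lists, because every time is set against the same 0 hpa libraries. Against 0 hpa, the 6 hpa wounds had 1049 transcripts called higher (5.21%) and 749 called lower (3.72%), and the 16 hpa wounds 1858 called higher (9.23%) and 1863 called lower (9.26%). The 24 hpa wounds had 3071 called higher (15.3%) and 3575 called lower (17.8%), and the 48 hpa wounds 2953 called higher (14.7%) and 2983 called lower (14.8%). In the order 3, 6, 16, 24 and 48 hpa, the 114 rises of at least 2-fold had median log2 fold changes of 1.33, 0.87, 0.41, 0.23 and 0.40 over 0 hpa. The 13 falls of at least 2-fold had medians of -1.18, -0.83, -0.40, -0.17 and -0.26 in the same order. In 80 of the 114 the mean level was highest at 3 hpa among the 6 times. These transcripts were chosen on their 3 hpa values, so nothing is read from the order of these medians.

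Single transcripts followed different courses. In the order 0, 3, 6, 16, 24 and 48 hpa, dd_16222 averaged 0.462, 6.36, 29.7, 21.4, 21.5 and 7.41 CPM. It was thus higher in 6 hpa wounds than in 3 hpa wounds (log2 2.12; edgeR adjusted p = 5e-05). The groups overlapped, with libraries from 6.69 to 46.3 CPM at 6 hpa and from 4.07 to 8.86 CPM at 3 hpa. In the same order dd_9273 averaged 7.33, 65.9, 78.7, 76.3, 60.6 and 33 CPM, and both transcripts were still called higher at the last time. dd_4392 had log2 fold changes over 0 hpa of 2.17, 1.48, 1.10, -0.39 and -1.06 in the order 3, 6, 16, 24 and 48 hpa, and it was called lower at the last 2 times. In that order dd_1940 had log2 fold changes of 2.76, 2.19, 1.75, 4.60 and 4.70, of which the values for 6 and 16 hpa did not pass the threshold.

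The annotated transcripts also parted, again with log2 fold changes over 0 hpa in the order 3, 6, 16, 24 and 48 hpa. TRAF2 had 1.10, 1.30, 0.69, 0.42 and 0.30, and the last value did not pass the threshold (edgeR adjusted p = 0.077). WDR46, with 0.39, 0.58, 0.29, 0.38 and 0.44, and GABRB2, with 0.40, 0.50, 0.38, 0.42 and 0.42, were called at every time. SLC10A2 was higher than at 0 hpa in the 3 and 6 hpa wounds (0.61 and 0.53) and lower in the 16, 24 and 48 hpa wounds (-0.70, -1.14 and -0.77). BRAF was lower in the 3, 6 and 16 hpa wounds (-0.37, -0.31 and -0.26), and its values of -0.05 and -0.01 at the last 2 times did not pass. ANKRD63 was lower at every time, with -0.45, -0.55, -0.44, -0.58 and -0.77. GAA had -0.41, -0.09, -0.69, -0.64 and -1.32, and its value for 6 hpa did not pass the threshold.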

How the data were processed

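The authors deposited one table of raw counts for 28742 transcripts of the dd_Smed_v6 transcriptome in 58 libraries, made from poly(A)-selected RNA. Per the submitters' processing notes, reads were trimmed with cutadapt 1.8 and handled with Bowtie 1.2 and SAMtools 1.6; the study's methods give another Bowtie version. Reads shared by near-identical transcripts cannot be assigned with certainty, and library strand was not given in the sources used here. Groups follow the sample titles. Members and gene lists were chosen with earlier results of these data known.

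Counts were tested in R 4.3.3 by the robust quasi-likelihood method of edgeR 4.0.16 (TMM scaling, filterByExpr with a minimum count of 10, 12 groups of treatment and time), with Benjamini-Hochberg adjustment over 20129 transcripts at 0.05. Levels are CPM on normalised library sizes. A fold change is given with its SE from the F statistic. At least 99.87% of each library's counts fell on tested transcripts. Libraries of the same group were compared for near-identity by chi-square per degree of freedom. The lowest value was 2.59, for 3 hpa replicates 3 and 4, and the other pairs at 3 hpa had 3.39 to 22.7. Replicate 3 is the shallow library, and few counts lower this value, so it does not settle how alike this pair is. Named transcripts were all annotated calls with a mean of at least 10 counts, the 2 largest rises and 2 largest falls without overlap among the rest, *equinox*, *bmp4*, *teneurin* and the 8 mitochondrial transcripts; list members are named where their list is described, and others are said to have been chosen after their values were seen. Annotation was held for a part of the transcriptome only, and names are by transcript number. In simulated counts with known changes for control 3 against 0 hpa (19560 transcripts), 36 of 97 changes of log2 0.5, 34 of 48 of log2 1 and 43 of 49 of log2 2 were recovered, with 1 false call. These counts were drawn independently with the fitted dispersions, without deviations shared between libraries. The false calls in the real data were therefore not measured. Alternatives were DESeq2 1.42.0, RLE size factors, other filters, fewer libraries, a replicate block and each library left out. Same-numbered replicates correlated in their deviations above 0.1 in 4 of 5 pairs, and the value for replicate 3 was -0.13. The highest correlation, 0.52, was between different numbers, 3 hpa replicate 5 and 0 hpa replicate 3. The labels give no pairing, so the replicates are not treated as pairs in the main fit. No sequence of the transcripts was used here.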

Additional observations from a re-analysis of the deposited data

Results flagged for a closer look

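In 6 of 76 groups of 5 libraries examined, 1 library lay far from the other 4, which chance gives in about 1 in 20 groups. dd_10569 (TRAF2) was at 5.55 CPM in 0 hpa replicate 1, against 8.24 to 8.79 CPM in the other 0 hpa libraries. dd_10148 (BRAF) was at 36.8 CPM in the same library, against 29.5 to 30.8 CPM in the others. dd_10199 (SLC10A2) was at 24.8 CPM in 0 hpa replicate 3, against 17.6 to 19.1 CPM in the others. dd_1062 (GAA) was at 606 CPM in 0 hpa replicate 5, against 535 to 554 CPM in the others. dd_10171 (GABRB2) was at 32.5 CPM in 3 hpa replicate 3, against 27.1 to 27.4 CPM in the others at 3 hpa. The same library detected 19606 transcripts, against 25193 to 26825 in the others at 3 hpa, from the lowest total of the series, 1312330 counts. The change of dd_3578 differed between control and *equinox* RNAi wounds by a log2 difference of -0.90 (edgeR interaction test, adjusted p = 0.0417), and it was not called in several alternatives given under the processing.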

How the results depend on the processing

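The 639 calls (309 higher, 330 lower) ran from 345 to 719 when each library was left out in turn, the rises from 156 to 373, the falls from 162 to 346, and the rises and falls of at least 2-fold from 51 to 162 and from 8 to 16. With 3 hpa replicates 3 and 4 both left out, an alternative chosen after seeing the data, 249 calls were made, 179 higher and 70 lower, 65 and 4 of at least 2-fold. A fit of the 10 libraries alone gave 1845 calls (805 higher, 1040 lower), one of the 19 libraries at 0 and 3 hpa gave 983 (526 lower), and one of the 29 control libraries gave 364 (135 lower, 5 of at least 2-fold). RLE size factors gave 213 falls, 8 of at least 2-fold, and no filter on low counts gave 213 falls. The number of calls in the gene lists, 10, ran from 6 to 10 with single libraries left out, and was 7 without 3 hpa replicates 3 and 4 and 26 in the fit of 10 libraries. The interaction count, 1, was 21 with DESeq2, 13 in the fit of 19 libraries, 0 to 1 with single libraries left out, and 0 with RLE size factors, a mean of at least 10 counts, no filter, without the 5 libraries whose labels disagree on time, and without 3 hpa replicates 3 and 4. The libraries share only a replicate number (3 of the 5 at 3 hpa correlated best with their own number). With the replicate block the fit gave 836 calls (396 higher, 440 lower), and with the block in the 10 libraries alone 2851 (1360 higher, 1491 lower), with 39 in the gene lists. The causes of these shifts were not tested. Of the 31 named calls 8 held in every alternative run and none changed sign. The share of rises of at least 2-fold with 3 hpa replicates 1 and 5 lowest was 28.6 to 47.4%, and the mitochondrial difference was 0.0803 to 0.118 percentage points without single libraries.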
